A study of Apis mellifera with 4 samples.

Results

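The Hox genes were examined in RNA-seq (HTS) data of queen and worker honeybee larvae at 60 hours. They are the genes of the deposited table whose name, ignoring case and hyphens, is lab, pb, Dfd, Scr, Antp, Ubx, abd-A or Abd-B, the homeotic genes of the insect Hox cluster. Of the 8 names, 7 had a row among the 11156 genes, and 1, pb, had none. Each caste, queen and worker, was represented by 2 samples, all of them pools of whole diploid female larvae (Apis mellifera) from a closed bee population, whose mothers had each been inseminated by a single drone. Larvae raised as queens were grafted soon after hatching into queen cells in a hive without a queen, and larvae raised as workers stayed in their own cells in another, queen-right hive, so that an effect of caste and an effect of the hive cannot be told apart. The replicates are separate samples of different larvae.

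Hox genes encode transcription factors that bind DNA through a homeodomain and give the segments of an animal their identity. In insects they lie in a cluster in the order of the body regions where they act, from the head to the end of the abdomen. Most of what is known of the single genes comes from Drosophila. There lab acts in the head and the midgut, Dfd in the mandibular and maxillary segments, and Scr in the labial segment and the prothorax. Antp acts in the thorax and its legs, Ubx in the posterior thorax and the most anterior abdomen, abd-A in the abdominal segments and Abd-B in the terminal segments and genitalia. Larvae keep Hox expression in the nervous system, the epidermis, the gut and the precursors of adult appendages. In pools of whole larvae, fewer cells of a type and less RNA per cell cannot be told apart.

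All 7 genes lay on 1 scaffold of the Amel_4.5 assembly, NW_003377938, in the order lab, Dfd, Scr, Antp, Ubx, Abd-A, Abd-B. The first was lab, at positions 9586 to 27013, and the last was Abd-B, at positions 1212445 to 1220437, so that the cluster covered 1210852 bases. Dfd lay at 233845 to 241569, Scr at 320556 to 351419, Antp at 498397 to 516396, Ubx at 728136 to 835914 and Abd-A at 961745 to 992428. The stretches between neighbouring Hox genes measured from 78986 bases (Dfd to Scr) to 220016 bases (Abd-A to Abd-B). The annotation gave each gene 2 or 3 exons. Summed exon lengths were between 993 bases (Ubx) and 2083 bases (Antp), whereas the introns measured between 6027 bases (Dfd) and 106786 bases (Ubx). Exons thus made up 0.921% of the length of Ubx, 4.02% of Scr and 3.88% of Abd-A, against 22.1% of Abd-B and 22.0% of Dfd.

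The exons of all genes received between 4949093 and 5476218 reads in a sample. The Hox genes together received 275 and 284 exon reads in the queens, compared with 364 and 365 in the workers, or between 52.7 and 69.6 reads in every 1000000 exon reads. The castes were compared by edgeR's quasi-likelihood test on counts scaled by TMM factors (queens 1.21 and 1.20, workers 0.828 and 0.831), and differences are given as the log2 fold change of queens over workers, here called the log2 ratio. With the library totals in place of these factors the median log2 ratio of all tested genes was 0.55 instead of 0.01 for exon reads and 0.42 instead of -0.11 for intron reads, and log2 ratios below are on the TMM scale unless stated. Fat body markers were abundant in every sample: the summed RPKM of the 4 hexamerin genes, which encode larval storage proteins, was 8696 and 9608 in queens and between 72756 and 80280 in workers, and all 4 were called lower in queens.

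Scr and lab had the highest expression of the Hox genes and Dfd the lowest. Expression is given as RPKM, the exon reads scaled to the length of the exons (reads per kilobase) and to the reads mapped to genes (per 1000000 reads). This level can be compared between genes only as far as their annotated exons are complete, which was not checked. Scr had an RPKM of 8.06 and 12.4 in the queens, compared with 12.9 and 9.998 in the workers. For lab the RPKM was 7.39 and 6.21 in queens and 7.14 and 12.6 in workers. The second worker sample stood apart from the other samples for lab, whereas for Scr it was the first queen sample that was lowest. Antp was the most even of the genes, with an RPKM of 5.89 and 5.86 in queens and 6.31 and 5.96 in workers. Abd-A had 4.74 and 5.27 in queens and 6.25 and 4.33 in workers, and its castes overlapped. Ubx had an RPKM of 3.74 and 1.71 in queens and 5.90 and 4.22 in workers. Abd-B had 0.641 and 1.63 in queens and 2.24 and 2.93 in workers. For Antp, Ubx and Abd-B, both queen samples lay below both worker samples by the RPKM, which is scaled by the library totals. The share of all genes that did so by RPKM was not counted. For Antp the gap was small, with a log2 ratio of -0.04 with the library totals.

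**Figure D1:**
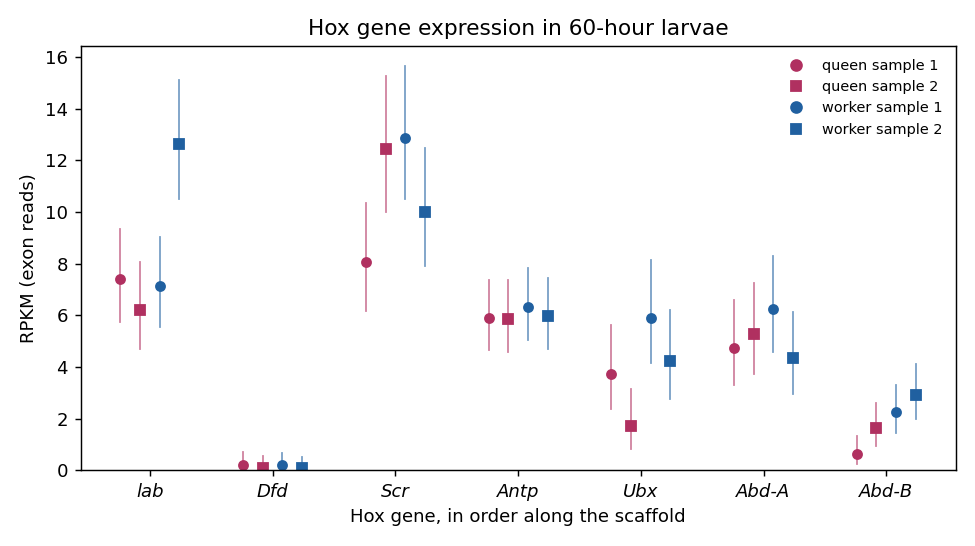
RPKM of each Hox gene (y axis, exon reads scaled to exon length and to reads mapped to genes) in the order of the scaffold (x axis), with 1 point for each of the 2 queen and 2 worker samples and bars for the exact Poisson 95% interval of the reads. Scr and lab reach an RPKM of 12.9 and 12.6, while Dfd stays at or below 0.190 in all 4 samples.

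The mean RPKM over the 4 samples placed the genes in the order Scr (10.8), lab (8.35), Antp (6.01), Abd-A (5.15), Ubx (3.89), Abd-B (1.86) and Dfd (0.143). The same order held within both queen samples and the first worker sample, and in the second worker sample only lab and Scr changed places. The ranges of the 4 samples overlapped between every pair of neighbours in this order except Abd-B and Dfd. Among the 9578 genes with at least 1 exon read, whose median RPKM was 10.3, Scr lay at percentile 51.3, lab at 45.4, Antp at 38.4, Abd-A at 35.5, Ubx at 31.2, Abd-B at 23.2 and Dfd at 5.72. The level did not run evenly along the cluster. Spearman's rho between the place in the cluster and the mean RPKM was -0.36 over the 7 genes, which share the same libraries, and is given as a description.

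Dfd, which patterns the mandibular and maxillary segments in Drosophila, was near the limit of detection. It had 2 and 1 exon reads in the queens, compared with 2 and 1 in the workers, and 2 intron reads in all 4 samples together. Its RPKM was 0.190 and 0.0999 in queens and 0.187 and 0.0950 in workers. A floor of 3 reads was used, about the 1-sided 95% upper limit of a count of 0. It is worth an RPKM between 0.280 and 0.300 on the exons of Dfd, and every sample lay below it. This floor does not bound the level of Dfd, which had reads in every sample. The upper ends of its exact Poisson 95% intervals were at an RPKM between 0.529 and 0.687. Dfd did not pass the filter on low counts and was not tested. The ratio of its reads in queens to those in workers, on the TMM scale, was 0.725, with an exact 95% interval from 0.0971 to 5.41 that covers counting error only. A difference between the castes of several-fold in either direction was therefore not detectable at this depth.

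Summed over the cluster, introns held more Hox reads than exons did. Scr held 570 of the intron reads, and lab, Dfd, Antp and Abd-B had more exon than intron reads. Intron reads were taken as the reads on a gene minus the reads on its exons, and they were 1471 against 1288 exon reads over the 7 genes and 4 samples. They made up 53.2% and 53.5% of the Hox reads in the queens, compared with 53.6% and 52.9% in the workers. Over all genes the share was between 13.3% and 16.1% in a sample. Among the 7369 genes with introns and at least 100 reads in all, where 6 of the Hox genes fall, the median share of intron reads was 5.70%. The Hox genes lay between percentile 84.2 (Antp) and percentile 95.9 (Ubx) of these genes by that share.

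The share of intron reads differed between the genes. It was 71.5% for Ubx, 67.6% for Abd-A and 63.3% for Scr, the genes with the longest introns, and 35.5% for lab, 33.1% for Abd-B and 29.7% for Antp. Relative to intron length, however, the Hox introns were not rich in reads. Ubx had 2.26 intron reads per kilobase of intron over the 4 samples, at percentile 16.8 of the 7369 genes, although its introns are longer than those of 97.6% of them. Scr had the densest introns of the cluster, with 19.2 reads per kilobase at percentile 59.7. Antp, lab and the abdominal genes had between 6.42 (Abd-B) and 10.9 (lab) reads per kilobase, against a median of 12.6.

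**Figure D2:**
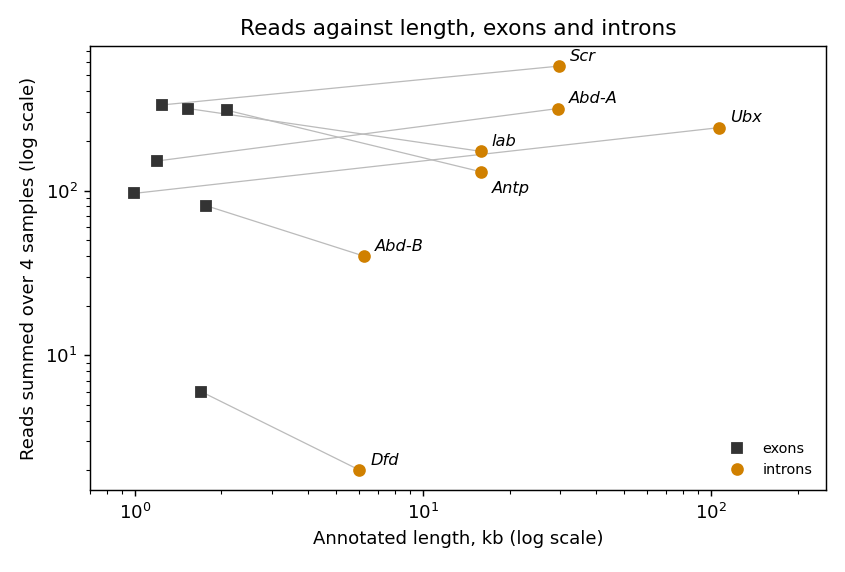
Reads summed over the 4 samples (y axis, log scale) against annotated length in kilobases (x axis, log scale) for the exons (squares) and introns (circles) of each Hox gene, joined by a line. The introns of Scr, Abd-A and Ubx hold 570, 315 and 241 reads, more than their exons with 331, 151 and 96, whereas lab, Antp, Abd-B and Dfd have more exon than intron reads.

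Per kilobase, exons were covered more densely than introns in each of the 6 genes with enough reads. The ratio of exon to intron density was 42.3 for Ubx, 18.8 for lab, 18.1 for Antp, 13.9 for Scr, 11.9 for Abd-A and 7.15 for Abd-B. Few reads crossed a splice junction. Antp had 9 such reads, Scr 11, Abd-A 8, lab 5, Ubx 2, Abd-B 1 and Dfd 0. If the exon reads were spread evenly over exons and reads were 50 bases long, 52.2 junction reads were due for the 7 genes, and 36 were seen, a ratio of 0.689. The median ratio of the 7295 genes with a single transcript and at least 5 reads due was 1.11. Of the 4 Hox genes with at least 5 reads due, Antp had a ratio of 1.24, Scr 0.842, Abd-A 0.644 and lab 0.496, whereas Ubx, Abd-B and Dfd had fewer reads due. The strand of the libraries was not stated in the sources used here. Intron reads of an unspliced Hox transcript and of another RNA from the same stretch thus cannot be told apart. Reads on exons missing from the annotation would also be counted as intron reads. Antp overlapped the end of 1 other annotated gene, LOC100578471, and Ubx held another, LOC100578525, within its bounds, on which 0 reads were counted.

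To ask whether Hox expression differed between the castes, exon reads were compared over the 7833 genes that passed edgeR's filter, and a gene was called where its p-value, adjusted by Benjamini-Hochberg, was below 0.05. None of the 6 Hox genes tested was called by edgeR's quasi-likelihood test, and 4 of the 6 had an unadjusted p-value below 0.05 and fewer reads in queens, as 19.2% of all tested genes did. Of all tested genes, 12% were called lower in queens and 6.33% higher. DESeq2's Wald test called 0 of 7 Hox genes, with 3 at an unadjusted p-value below 0.05, and 1447 of all 9578 genes. With limma on log2(RPKM + 1), which is scaled by library totals, 0 of 6 were called and 0 had an unadjusted p-value below 0.05. That test called 3970 of all 7904 genes. All 6 Hox genes tested by edgeR had fewer scaled reads in both queen samples than in both worker samples, as 32.1% of all tested genes did. All 6 log2 ratios were below 0, as were 49.3% of those of all tested genes, and their median was -0.86 against 0.01. With library totals alone their log2 ratios lay between -1.16 and -0.04, all below 0, while the median of all genes was 0.55.

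**Figure D3:**
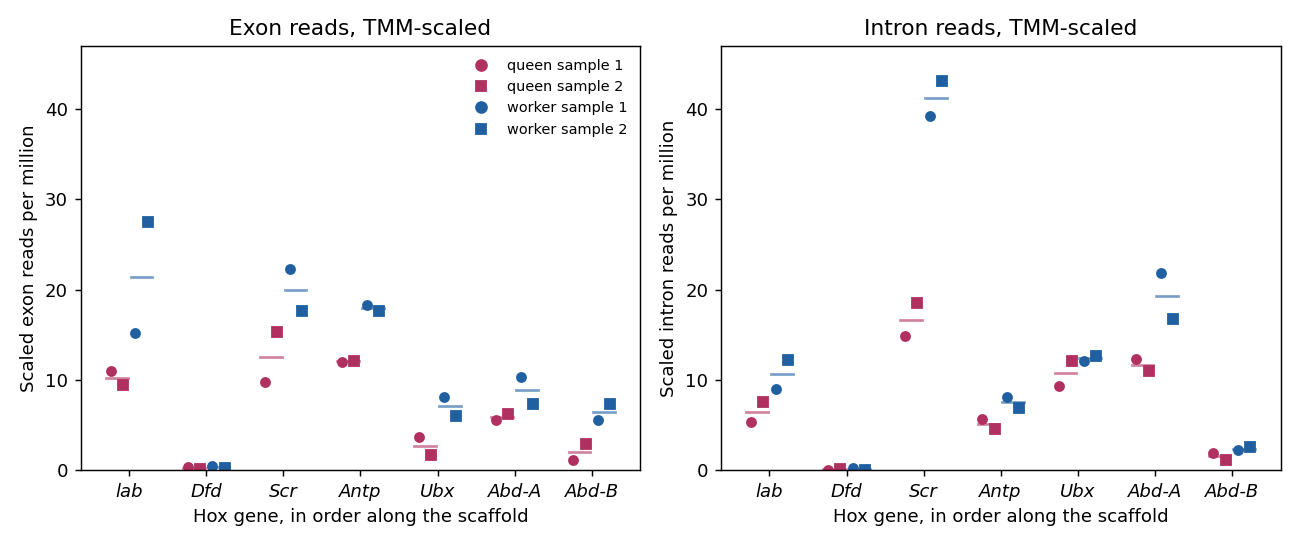
Exon reads (left) and intron reads (right), both scaled by TMM to 1000000 reads, for each Hox gene in each sample, with a short line at the mean of each caste. Both queen samples lie below both worker samples for the exons of all genes but Dfd, and the widest gap is that of the Scr introns, at 14.8 and 18.6 in queens and 39.3 and 43.2 in workers.

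At the anterior end, lab had 70 and 56 exon reads in the queens, compared with 69 and 120 in the workers. Its log2 ratio was -1.06 (standard error 0.33, 95% interval -1.88 to -0.23, adjusted p = 0.085 from edgeR). The second worker sample was far above the other samples, and without it the log2 ratio was -0.57 (adjusted p = 0.23 from edgeR). Scr had 62 and 91 exon reads in queens and 101 and 77 in workers, a log2 ratio of -0.67 (95% interval -1.38 to 0.04, adjusted p = 0.17 from edgeR). Without the first queen sample it was -0.38, and without the second -1.02 (adjusted p = 0.052 from edgeR). The raw reads of the castes overlapped for both genes.

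In the thoracic gene Antp, exon reads were 76 and 72 in the queens, compared with 83 and 77 in the workers. The samples of a caste differed by a factor of 1.01 in queens and 1.04 in workers after scaling, the smallest spread of the Hox genes. The log2 ratio of -0.58 (95% interval -1.04 to -0.11, adjusted p = 0.093 from edgeR) became -0.04 with the library totals. Ubx had 23 and 10 exon reads in queens and 37 and 26 in workers, a log2 ratio of -1.40 (standard error 0.45, 95% interval -2.53 to -0.26, adjusted p = 0.092 from edgeR). The queen samples differed from each other by a factor of 2.15. Without the first queen sample the log2 ratio of Ubx was -2.05 (adjusted p = 0.029 from edgeR), and without the second it was -0.95.

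Of the abdominal genes, Abd-A had 35 and 37 exon reads in the queens, compared with 47 and 32 in the workers, with a log2 ratio of -0.59 (95% interval -1.33 to 0.15, adjusted p = 0.22 from edgeR). It was -0.32 without the first worker sample and -0.81 without the second. Abd-B had 7 and 17 exon reads in queens and 25 and 32 in workers. This was the largest log2 ratio of the cluster, -1.69 (standard error 0.51, 95% interval -2.96 to -0.43, adjusted p = 0.076 from edgeR). The queen samples of Abd-B differed by a factor of 2.60. Without the second queen sample the log2 ratio was -2.51 (adjusted p = 0.014 from edgeR), and without the first it was -1.15 (adjusted p = 0.21 from edgeR). The sample left out also decided the call for lab, which reached an adjusted p of 0.041 from edgeR without the first queen sample.

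On intron reads 1 Hox gene was called, Scr, which specifies the labial and prothoracic segments and the salivary glands in Drosophila. Scr had 94 and 110 intron reads in the queens, compared with 178 and 188 in the workers. On the TMM scale workers had 2.47 times as many (95% interval 1.73 to 3.52), or a log2 ratio of -1.30 (standard error 0.24, adjusted p = 0.0027 from edgeR over the 4382 genes tested on intron reads). Both queen samples lay far below both worker samples, and the samples of a caste differed by a factor of 1.25 in queens and 1.10 in workers. With library totals alone the log2 ratio was -0.76 (adjusted p = 0.038 from edgeR). No other annotated feature overlapped Scr. Its exons gave a log2 ratio of -0.67, and the difference between the exon and intron values was not tested.

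Scr was the only 1 of the 6 tested Hox genes called on intron reads. Of all genes tested on intron reads, 14.9% were called, 12.1% lower in queens and 2.83% higher. A single call among 6 genes is thus close to the share of all genes. With the library totals that background turned, from 124 genes higher and 531 lower in queens to 702 and 223. Of the 6, 3 had an unadjusted p-value below 0.05 and fewer reads in queens, as 20.3% of all genes did. All 6 log2 ratios were below 0, as were 56.8% of those of all genes, with a median of -0.66 against -0.11. For 5 of the 6, all but Ubx, both queen samples lay below both worker samples after scaling, as for 34.9% of all genes. Abd-A came next, with 78 and 65 intron reads in queens and 99 and 73 in workers and a log2 ratio of -0.73 (95% interval -1.28 to -0.18, adjusted p = 0.076 from edgeR). For lab the intron reads were 34 and 45 in queens and 41 and 53 in workers, a log2 ratio of -0.71 (adjusted p = 0.15 from edgeR). Neither passed the test.

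Ubx introns were nearly even between the castes. They held 59 and 72 reads in the queens, compared with 55 and 55 in the workers, with a log2 ratio of -0.21 (95% interval -0.78 to 0.37, adjusted p = 0.67 from edgeR) that turned to 0.33 with the library totals. Intron reads made up 72.0% and 87.8% of the Ubx reads in queens and 59.8% and 67.9% in workers. The exact binomial 95% intervals of these shares, which cover counting error only, were 60.9 to 81.3% and 78.7 to 94.0% in queens and 49.0 to 69.9% and 56.6 to 77.8% in workers, and the second queen sample alone lay outside those of both worker samples. Antp had 36 and 27 intron reads in queens and 37 and 30 in workers (log2 ratio -0.55), and Abd-B had 12 and 7 in queens and 10 and 11 in workers (log2 ratio -0.60). For Abd-B the 95% interval of the log2 ratio, -1.69 to 0.48, spans both directions at this depth.

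**Figure D4:**
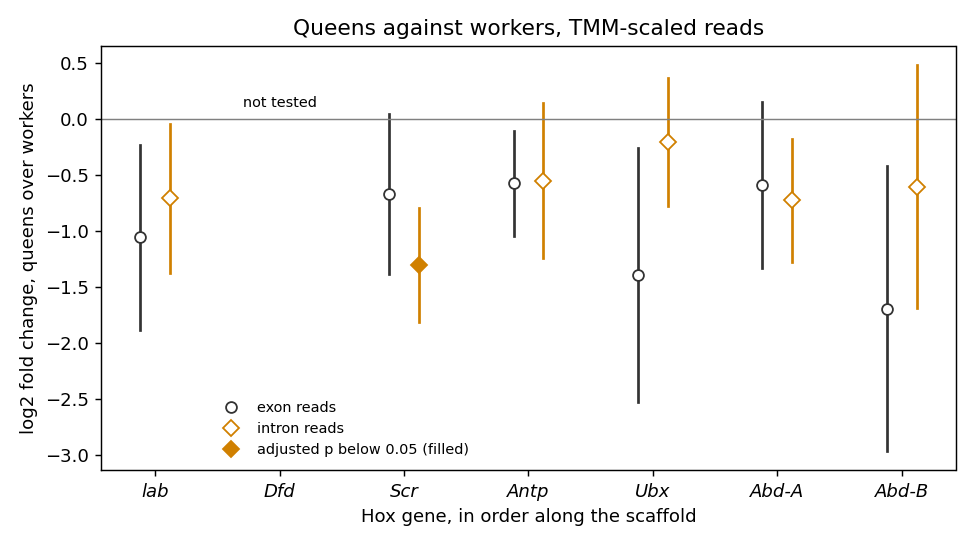
Log2 fold change of queens over workers (y axis) with its 95% interval from edgeR for the exon reads (circles) and intron reads (diamonds) of each Hox gene in the order of the scaffold (x axis), on the TMM scale; a filled symbol has an adjusted p below 0.05. Only the Scr introns, at -1.30, are filled, the Ubx exons and introns stand at -1.40 and -0.21, and Dfd was not tested.

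When exon and intron reads were added together, Scr had 156 and 201 reads in queens and 279 and 265 in workers, and it was called lower in queens with a log2 ratio of -1.04 (adjusted p = 0.020 from edgeR). Abd-B had 19 and 24 reads in queens and 35 and 43 in workers and was also called, with a log2 ratio of -1.29 (adjusted p = 0.046 from edgeR). The other 4 tested Hox genes were not called, with log2 ratios between -0.91 (lab) and -0.51 (Ubx). Of all 8666 genes tested in this way, 12.9% were called lower in queens.

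Depth set the width of these comparisons. Over the 4 samples exon reads numbered 331 for Scr, 315 for lab, 308 for Antp, 151 for Abd-A, 96 for Ubx and 81 for Abd-B. By counting error alone the exact 95% interval of the ratio of queens to workers ran from 0.532 to 0.844 for Antp, and from 0.181 to 0.500 for Abd-B. With the spread between samples added, the edgeR interval for the fold by which workers exceeded queens was 1.08 to 2.06 for Antp and 1.34 to 7.79 for Abd-B. For any 1 gene, exact permutation of the 4 samples gives no p-value under 0.333. Reads matched a single place for all exon reads of 6 Hox genes and for 99.7% of those of Antp.

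Markers of other tissues were read beside the Hox genes. Of the 8 nervous system markers listed, 6 were matched and 5 tested, with a median log2 ratio of -0.73, of which 2 were called lower in queens, none higher and 3 were not called, beside 12% of all tested genes called lower. These were Syx1A, a syntaxin of the synapse, with a log2 ratio of -0.73 (adjusted p = 0.045 from edgeR), and LOC409012, which RefSeq lists as brp, a protein of the presynaptic active zone, with -0.80 (adjusted p = 0.047 from edgeR). With the library totals neither was called (-0.19 and -0.26). The marker cpx, complexin of the synapse, went the other way, with 69 and 37 exon reads in queens and 26 and 21 in workers. Its log2 ratio was 0.70 (adjusted p = 0.25 from edgeR). With the library totals cpx was called higher in queens (1.24, adjusted p = 0.038 from edgeR), as were 3704 of all 7833 tested genes. Rdl, a GABA receptor subunit of neurons, had 3 exon reads in each queen sample and 6 in each worker sample. The summed RPKM of the 6 markers was 17.4 to 20.1 in queens and 18.3 to 19.0 in workers, so that the castes overlapped. Of the 8 muscle markers only Mlc2, a myosin light chain, was matched, and it was called lower in queens with a log2 ratio of -1.04. The part of tissue composition in the Hox values was not tested.

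From lab to Abd-B the scaffold held 19 other annotated features, of which 13 had exons and 6, among them the microRNA genes Mir993, Mir10-1 and Miriab-4, were listed with an exon length of 0. Together the 13 received 144 exon reads, against 1288 for the Hox genes. Mxp lay between lab and Dfd, at 68171 to 72072. It bears the name of maxillopedia, the ortholog in the beetle Tribolium of pb, which patterns the mouthparts. Mxp had 1 and 2 exon reads in the queens, compared with 4 and 1 in the workers, a mean RPKM of 0.158, close to that of Dfd. Both genes were near the limit of detection, whereas the mean RPKM of lab on one side was 8.35 and that of Scr on the other 10.8. The feature with the most exon reads was LOC100578471, next to Antp, with 16 and 11 in queens and 15 and 19 in workers, and it was the only one tested (log2 ratio -0.80, adjusted p = 0.22 from edgeR). Of the 3 features with over 10 exon reads, the others lay between Abd-A and Abd-B and had more raw reads in queens. LOC100578827 had 7 and 16 exon reads in queens and 3 and 6 in workers, and LOC100578791 had 7 and 9 in queens and 4 and 4 in workers. LOC100578295, which spans most of the stretch between Scr and Antp, had 5 exon reads but 117 reads on the whole gene.

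Hox proteins bind DNA with cofactors, and Polycomb and trithorax group proteins keep Hox genes silent or active through cell division. Of the 5 cofactors listed, only exd, which encodes the TALE homeodomain protein Extradenticle, was matched by name. It had 443 and 382 exon reads in queens and 373 and 306 in workers and a mean RPKM of 19.7, above that of every Hox gene. It was not called, with a log2 ratio of -0.18 (95% interval -0.51 to 0.15, adjusted p = 0.38 from edgeR), which became 0.36 with the library totals. Of the 16 Polycomb group genes 7 were matched and tested, and none was called in either direction. Their log2 ratios lay between -0.27 (Jarid2) and 0.51 (Su(z)12) with a median of 0.28. With the library totals all 7 were above 0 and 5 were called higher in queens. On that scale 3704 of all 7833 tested genes were called higher in queens. Of the 15 trithorax group genes 7 were matched and tested, and 1, osa, a subunit of the Brahma chromatin remodelling complex, was called lower in queens, with a log2 ratio of -0.58 (adjusted p = 0.014 from edgeR) that was -0.04 with the library totals. The others had log2 ratios between -0.28 (ash1) and 0.21 (trx). With the library totals 5 of them, all but ash1, were called higher in queens, beside the same 3704 of 7833 genes.

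Of the 3 genes listed from the Drosophila Hox complexes that have no homeotic role (zen, ftz and bcd), none was matched by name. The segmentation genes that act before the Hox genes in the Drosophila embryo were mostly near 0 reads. Of the 18 listed, 9 were matched and only cad and h had enough reads to be tested. The hairy gene h, a repressor of the bHLH family, was called higher in queens, with 892 and 764 exon reads in queens and 366 and 345 in workers and a log2 ratio of 0.75 (adjusted p = 0.011 from edgeR). Kr had 0 reads in all samples, and Hb, gt, Tll, eve and Prd had at most 2 in a sample. Of the 12 genes of appendage and head patterning, 7 were matched, 5 were tested and none was called. With the library totals 3 of the 5 (sd, dpp and ct) were called higher in queens, as were 3704 of all 7833 tested genes. Dll, which Hox genes of the abdomen repress in Drosophila, had 3 and 5 exon reads in queens and 9 and 4 in workers.

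The genes whose exon reads most resembled those of Scr, the Hox gene with the highest mean level, were LOC412354, LOC100578321 and LOC727232. Their centred log2 values differed from those of Scr by 0.03, 0.04 and 0.05 (root mean square over the 4 samples). LOC412354 had 253 and 375 exon reads in queens and 397 and 299 in workers. As for Scr, the second queen sample was higher than the first and the first worker sample higher than the second. This follows from the choice of the gene by its likeness to Scr over these same 4 samples. Within 0.1 of Scr lay 12 of the tested genes, and 4 samples can tell few patterns apart.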

How the data were processed

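Per the labels and the methods, whole larvae were pooled, and RNA was sequenced on an Illumina HiSeq instrument. The authors used CLC Genomics Workbench with the Amel_4.5 assembly, and the deposited counts give the reads of each gene on its exons, on the whole gene and across junctions, reads with several matches included. The deposited RPKM was made by the authors from exon reads, exon length and reads mapped to genes. Positions and exon lengths were taken as the authors exported them, and their columns of fold changes and tests and a second table, of transcripts they called, were not used.

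From the deposited counts, edgeR 4.0.16 (R 4.3.3) was run with filterByExpr, TMM factors and the quasi-likelihood test, leaving the replicate number out of the model. Intron counts (gene minus exon reads) of genes with 2 or more exons were tested with the scaling of the exon counts. P-values were adjusted over all genes tested, and standard errors and intervals derived from the F statistic. Alternatives used DESeq2 1.42.0, limma 3.58.1 on the log2 of RPKM plus 1 or plus 0.1, other scalings, filters and read classes, and fits that left out a sample. Tests were checked on simulated counts with 200 changed genes. The simulation built in no shift in scaling between the castes and changed no genes of low count, so it does not bear on either. Intervals of counts are exact, at 95%, and cover counting error only.

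The members and the gene lists were chosen with earlier results of these data known. Gene lists were matched by symbol, or by the synonyms of the RefSeq table of Amel_HAv3.1, with Vg left out as vitellogenin. Besides the members, genes between them, called or cofactor genes of the lists, and the 3 genes most like Scr were to be named; other list genes were named after their values were seen. Plots were drawn with matplotlib 3.10.9. Hox sequences were not used here.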

Additional observations from a re-analysis of the deposited data

Results flagged for a closer look

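Reads were counted on features of the Hox cluster that have an exon length of 0 and so enter neither the RPKM nor the comparison of exon reads. LOC100578198, which lies between Dfd and Scr and contains Mir10-1, had 19 and 18 reads in queens, compared with 22 and 15 in workers, 74 in all. LOC100578740, between Antp and Ubx, had 13 and 4 reads in queens and 5 and 13 in workers, 35 in all. These counts exceed the floor of 3 reads in all 4 samples.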

How the results depend on the processing

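Each Hox gene tested kept a log2 ratio below 0 for exon reads under every alternative it passed (Abd-B did not pass a minimum of 10 reads in every sample), and none was called under another scaling, filter or tool. The count of all genes called on exon reads, 1438, was 4190 with library totals, 3970 with limma on log2(RPKM + 1), 3893 with limma on log2(RPKM + 0.1), and 298 to 1314 when a sample was left out (298 without the second worker sample, 465 without the first). For intron reads the count of 655 was 292 with DESeq2's Wald test and 315 to 614 when a sample was left out (315 without the second worker sample, 432 without the first queen sample). The cause was not tested. The split by direction turned with the scaling: with library totals 3704 genes were called higher and 486 lower in queens, against 496 and 942, and without the 10 most abundant genes in those totals 1427 and 650. For intron reads it turned from 124 higher and 531 lower to 702 and 223 with library totals. Scr stayed called lower in queens on intron reads under all 10 alternatives (log2 ratio -1.47 to -0.76, adjusted p 0.0021 to 0.038 from edgeR or DESeq2). The Ubx intron value turned from -0.21 to 0.33 with library totals, and was not called in either fit. Counting features without annotated introns, an alternative chosen after seeing the data, left 778 genes called on intron reads. Samples with the same replicate number are different larvae and did not deviate together (correlation -0.04 for exon reads, -0.01 for intron reads). With the replicate number as a block, 1230 genes were called on exon reads and 588 on intron reads, and no call of a Hox gene changed. Fits without a sample assume that the lone sample of a caste varies like the others.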
